A study of Mus musculus with 6 samples.

Results

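The 8 genes described here encode cell surface adhesion and guidance proteins and their partners inside the cell: the cadherins Cdh17 and Cdh6, the catenin relatives Ctnnal1 and Ctnnd2, the semaphorin Sema5a, the syndecan Sdc2, the tetraspanin Tspan33 and the collectin Colec12. They are 8 of 53647 features in the deposited table and were found by their Ensembl identifiers. The study sequenced RNA, with a stranded mRNA library kit, of D2.OR cells, which are a line of mouse breast cancer cells used to model dormancy. One group carried a lentiviral hairpin against Slx4ip (shSLX4IP, 3 libraries) and the other a lentiviral hairpin with a scrambled, non-targeting sequence (shScram, 3 libraries). All cells had been selected with puromycin after transduction, were plated at 31500 cells per cm2 on Cultrex, a basement membrane extract, and were harvested after 7 days of 3D culture. The labels name 1 hairpin construct per group, and they call the replicates biological without saying whether the cultures were separate, so part of the spread between libraries may be technical.

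Cadherins are calcium-dependent receptors that hold neighbouring cells together, and the tails of classical cadherins such as Cdh6 bind catenins, which link them to actin. Semaphorins are guidance cues, secreted or anchored in the membrane, that act through plexin receptors on cell movement and adhesion. Syndecans carry heparan sulphate chains that bind matrix and growth factors, tetraspanins organise other membrane proteins, and collectins of the membrane bind sugars and modified lipoproteins. In mammary epithelium such proteins set how cells attach to each other and to the matrix. Ctnnal1 and Ctnnd2 encode proteins of the cell interior and not of the surface.

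Only part of the table could be read by gene name. Genes that every cell uses, such as Actb, Eef1a1 and Rplp0, were listed at 0 in all 6 libraries. The same holds for the target gene Slx4ip, which therefore gave no check of the labels. Runs of protein-coding genes with high values were found at the starts of chromosomes 4, 6, 15 and 18 of GRCm38, and genes inside these runs and mitochondrial genes are called placed. All 8 members are placed. They were chosen by what their genes encode and by lying in these runs, which were found from mean values over the 6 libraries, and with the group differences already known. The members' differences below are therefore descriptions. Tspan33 lies 0.79 Mb and Colec12 0.94 Mb from the end of their runs, and the other 6 members lie 3.04 Mb or more from either end. The libraries held 5433573 to 6693111 recovered reads. The deposited values of shScram A summed to 8.95e+06, against 5.28e+06 to 5.97e+06 in the other libraries, and in shScram A long genes read lower and short genes higher than in the others, with a slope of -0.29 log2 units per doubling of exonic length.

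Of the 8 members, 5 were detected at a mean normalised count of at least 10 and 3 were at or near 0. Ctnnal1 and Tspan33 were higher in shSLX4IP, and Cdh17, Sema5a and Colec12 were lower. In these 5 genes the libraries of the groups did not overlap, and each passed the test across all features (limma on log2(value + 1), adjusted p from 0.000404 to 0.00518). A mean of at least 10 was reached by 8127 features, 462 of them placed, and the shares that follow are of these. By that test 11.7% of the 8127 were higher in shSLX4IP and 11.3% lower. Of the 462, 17.3% were higher and 22.9% lower. The groups did not overlap in 53.5% of the 8127 and in 67.1% of the 462. Since the members were named with these differences known, nothing is read from the count of 5. The lowest mean among the 5 was that of Cdh17, at 98.8 over the 6 libraries, and the highest among the other 3 was that of Sdc2, at 1.69.

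**Figure D1:**
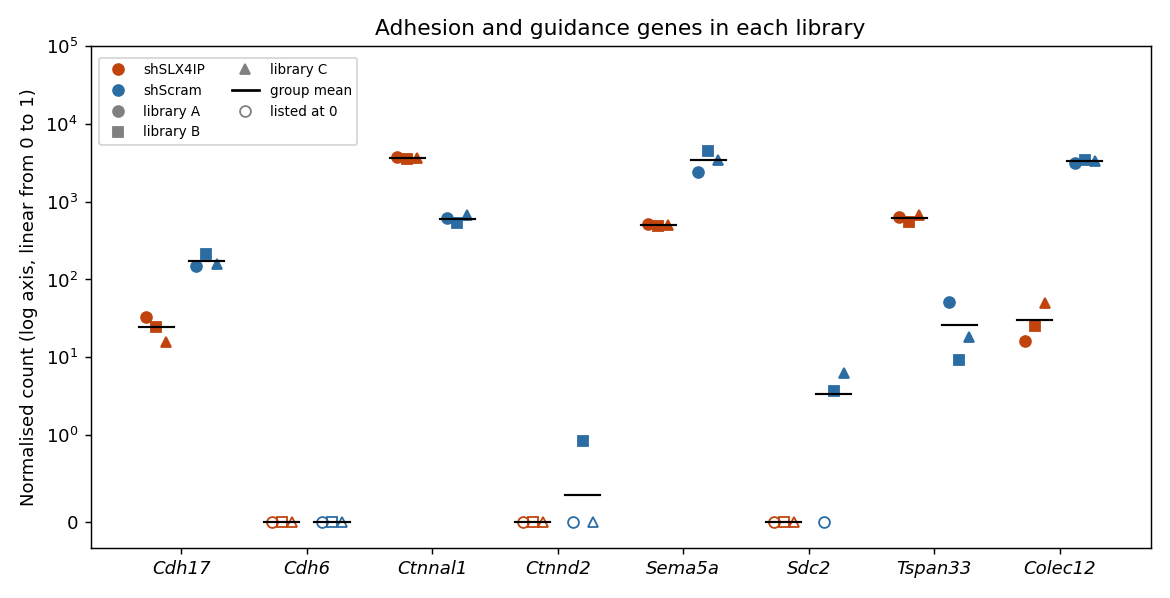
Normalised count of the 8 genes in each library, on a log axis that is linear between 0 and 1, with shSLX4IP (red) left of shScram (blue), a symbol for each library letter and a bar at each group mean. Cdh6 is at 0 in all 6 libraries, while Ctnnal1 lies between 3573 and 3736 in shSLX4IP, against 535 to 671 in shScram.

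Promoters of 5 of the 8 members were in the RefSeq table for GRCm38.p6, each running from 250 bases before the annotated start to 50 bases after it. Those of the 2 genes that were higher, of Sema5a, which was lower, and of Cdh6, which gave no read, are shown so that their base composition can be compared. Capitals mark each match to the GC box GGGCGG or its reverse complement CCGCCC, overlapping matches included.
Ctnnal1, chr4:56865162-56865461, minus strand: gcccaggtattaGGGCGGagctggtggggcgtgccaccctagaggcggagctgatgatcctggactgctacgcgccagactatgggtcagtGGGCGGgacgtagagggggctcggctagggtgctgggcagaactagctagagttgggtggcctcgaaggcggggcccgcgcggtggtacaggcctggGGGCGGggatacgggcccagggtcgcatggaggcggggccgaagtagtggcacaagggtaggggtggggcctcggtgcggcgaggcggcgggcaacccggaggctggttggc
Tspan33, chr6:29693964-29694263, plus strand: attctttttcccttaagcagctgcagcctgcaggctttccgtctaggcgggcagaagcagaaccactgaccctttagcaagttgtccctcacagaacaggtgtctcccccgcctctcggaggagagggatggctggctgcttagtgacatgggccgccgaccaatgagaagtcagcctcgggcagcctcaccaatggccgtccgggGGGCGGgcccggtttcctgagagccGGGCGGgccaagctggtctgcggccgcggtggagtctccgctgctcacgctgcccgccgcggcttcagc
Sema5a, chr15:32244563-32244862, plus strand: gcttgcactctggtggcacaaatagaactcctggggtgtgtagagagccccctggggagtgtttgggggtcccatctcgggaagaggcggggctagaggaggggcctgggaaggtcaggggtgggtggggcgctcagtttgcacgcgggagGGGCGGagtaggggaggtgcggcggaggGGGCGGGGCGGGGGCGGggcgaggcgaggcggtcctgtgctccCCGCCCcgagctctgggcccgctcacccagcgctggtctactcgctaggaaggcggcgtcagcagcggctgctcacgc
Cdh6, chr15:13173626-13173925, minus strand: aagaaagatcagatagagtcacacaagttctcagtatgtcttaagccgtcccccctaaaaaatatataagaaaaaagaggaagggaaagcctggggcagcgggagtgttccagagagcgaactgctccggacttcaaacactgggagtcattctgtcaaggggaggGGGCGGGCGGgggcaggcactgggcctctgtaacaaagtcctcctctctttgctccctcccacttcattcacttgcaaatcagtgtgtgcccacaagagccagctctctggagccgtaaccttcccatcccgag
The GC box was found 3 times in the Ctnnal1 window, 2 times in that of Tspan33, 5 times in that of Sema5a and 2 times in that of Cdh6, and 35.7% of 32851 RefSeq promoter windows held it on either strand. The window of Ctnnal1 was 70.3% G and C with 24 CpG pairs, that of Tspan33 65.0% with 21, that of Sema5a 71.3% with 23 and that of Cdh6 53.0% with 8, against medians of 52.7% and 7 over all windows. The window of Ctnnd2, a gene at or near 0 as well, was 64.7% G and C with 28 CpG pairs and 1 GC box. The E-box CAGGTG (reverse complement CACCTG, in 20.2% of all windows) occurred 1 time, in Tspan33, and in none of the other 4 windows. The CCAAT box (reverse complement ATTGG, in 37.4% of all windows) occurred 2 times, again in Tspan33 and in none of the other 4. TATAAA (reverse complement TTTATA, in 13.6% of all windows) was in none of the 5. These matches describe the letters of the windows and not sites of binding.

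Cdh17 was the cadherin that could be measured, and it was lower in shSLX4IP. It encodes LI-cadherin, an adhesion receptor best known from intestinal epithelium. Cdh17 (ENSMUSG00000028217.12, chromosome 4, 11758147 to 11817895, plus strand) was at 32.6, 24.4 and 15.9 normalised counts in shSLX4IP libraries A, B and C, against 151, 212 and 157 in shScram A, B and C. The highest shSLX4IP library was thus well under the lowest shScram library. The mean was 24.3 ± 8.35 in shSLX4IP and 173 ± 33.8 in shScram (SD, n = 3 each), 7.12-fold lower in shSLX4IP, and the log2 difference was -2.82 (SE 0.37, 95% interval -3.74 to -1.90). The shSLX4IP values rest on 36, 25 and 20 reads. After quantile normalization the log2 difference was -3.53, and without shSLX4IP C it was -2.56.

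Cdh6, a classical cadherin known from kidney and neural development, was listed at 0 in all 6 libraries. Its row (ENSMUSG00000039385.6, chromosome 15, 13028701 to 13173675, minus strand) allows up to 3 reads per library, which is a normalised count of 2.39 to 2.93 in shSLX4IP and of 2.73 to 4.39 in shScram, by counting error alone. Drosha, the gene before it on the chromosome, which overlaps another gene on its own strand, was at 982 ± 18.9 in shSLX4IP and 1760 ± 65.2 in shScram. Placed runs were found by high values, so reads in a neighbour are no separate check of the Cdh6 row. The 4 other cadherin genes placed on chromosome 15 were also at or near 0. Cdh12 and Cdh18 were listed at 0 throughout. Cdh9 had no read in shSLX4IP and a value of 3.74 in shScram B, and Cdh10 had none in shSLX4IP and 11.2 and 3.65 in shScram B and C. Of the 56 cadherin genes listed, 6 were placed, and Cdh1 and Cdh2, the epithelial and neural cadherins, were not among them and are not analysed here.

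Ctnnal1 was higher in shSLX4IP, where it had the highest level per kilobase of the 8. It encodes alpha-catulin, a cytoplasmic relative of alpha-catenin and vinculin. Ctnnal1 (ENSMUSG00000038816.15, chromosome 4, 56810935 to 56865188, minus strand) was at 3736, 3573 and 3670 in shSLX4IP libraries A, B and C, against 609, 535 and 671 in shScram A, B and C. Within each group the libraries lay close together, with the highest 1.05 times the lowest in shSLX4IP and 1.25 times in shScram. The mean was 3660 ± 81.9 in shSLX4IP, against 605 ± 67.9 in shScram (SD, n = 3 each), which is 6.05-fold higher in shSLX4IP, with a log2 difference of 2.60 (SE 0.14, 95% interval 2.24 to 2.96).

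Ctnnd2, which encodes delta-catenin, a partner of cadherin tails found mainly in neurons, was not detected in shSLX4IP. Its row (ENSMUSG00000022240.11, chromosome 15, 30172593 to 31029341, plus strand) held 0 reads in each shSLX4IP library, and in shScram 1 read in library B and 0 in A and C. At this depth no difference between the groups was detectable. Dap, the next gene along the chromosome, was at 2649 ± 55.7 in shSLX4IP and 11711 ± 4849 in shScram (log2 difference -2.07, limma adjusted p = 0.00624). The log2 difference of Dap was -1.75 without shScram A and -1.77 with each library's trend with length removed.

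Sema5a was the one guidance cue among the members with reads, and it was lower in shSLX4IP. It encodes a semaphorin anchored in the membrane, with thrombospondin repeats, that is known to signal through plexins. Sema5a (ENSMUSG00000022231.11, chromosome 15, 32244810 to 32696341, plus strand) was at 517, 492 and 503 in shSLX4IP libraries A, B and C, against 2368, 4459 and 3450 in shScram A, B and C. The shSLX4IP libraries were nearly equal, and the spread lay in shScram, with shScram A the lowest. The mean was 504 ± 12.7 in shSLX4IP and 3425 ± 1046 in shScram (SD, n = 3 each), 6.79-fold lower in shSLX4IP, with a log2 difference of -2.71 (SE 0.25, 95% interval -3.34 to -2.09). With 18.7 kb of exons Sema5a was among the longest placed genes, number 6 of 431 by exonic length. With each library's trend with length removed, its log2 difference was -3.03, and without shScram A it was -2.96. After quantile normalization it was -2.44.

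Sdc2, which encodes a heparan sulphate proteoglycan of mesenchymal and other cells, starts 676 kb after Sema5a and was near 0. Its row (ENSMUSG00000022261.7, chromosome 15, 32920723 to 33034935, plus strand) held 0 reads in each shSLX4IP library and 0, 4 and 7 reads in shScram A, B and C, which are normalised counts of 0, 3.74 and 6.38. The groups shared the value 0, and the gene was below the mean of 10 at which features were tested. Cpq, the next gene, was at 413 ± 54.3 in shSLX4IP and 418 ± 32.0 in shScram, so the low values of Sdc2 lay between 2 genes with reads. Reads in neighbours are in part given by the rule that found the runs. Sdcbp, which encodes the syndecan-binding protein syntenin, was at 6620 ± 374 in shSLX4IP and 8183 ± 684 in shScram and did not pass (log2 difference -0.30, limma adjusted p = 0.122). It passed as lower with DESeq2 (adjusted p = 0.0120), with the length trend removed (0.0175) and without shScram A (0.0316).

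**Figure D2:**
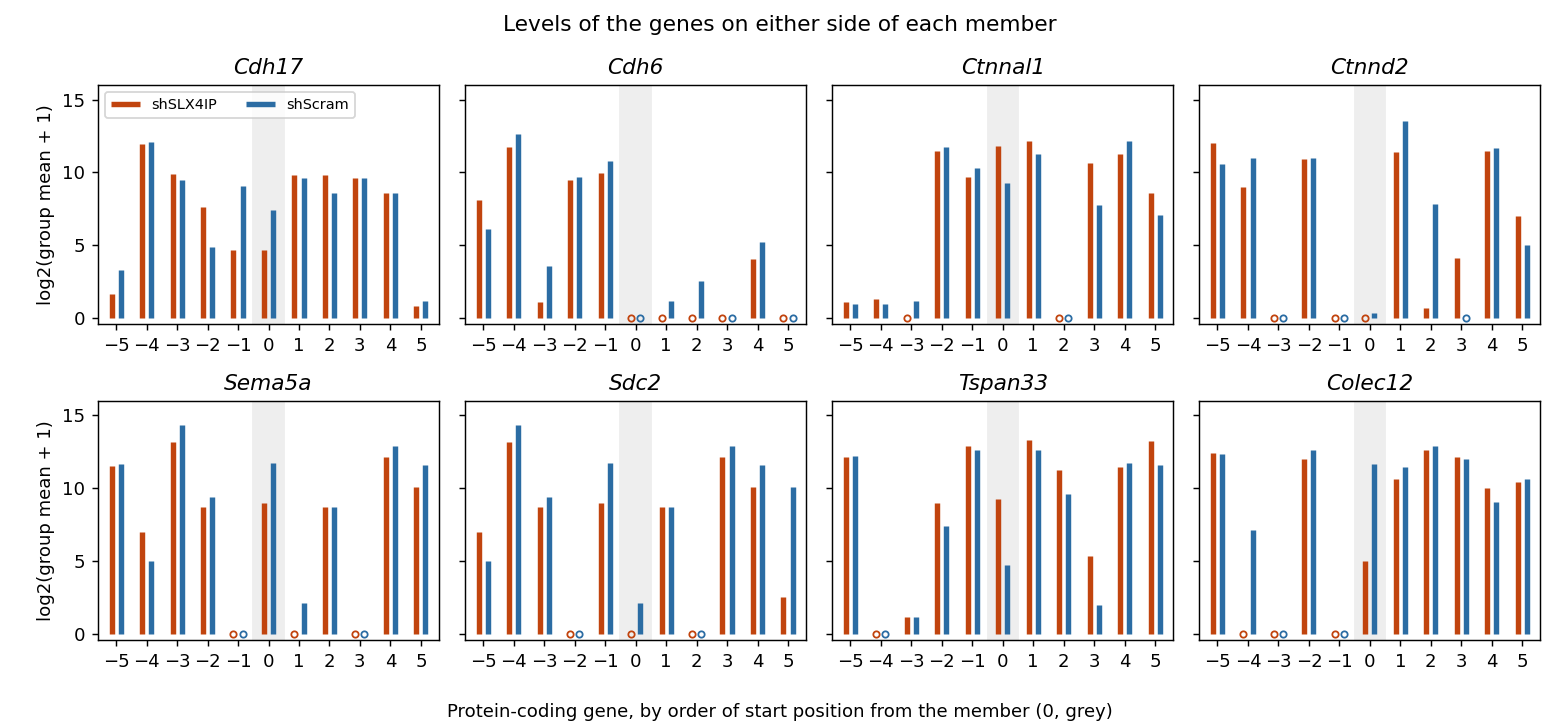
Mean level, as log2(group mean + 1), of each member (0, grey) and of the 5 protein-coding genes on either side of it in order of start position, for shSLX4IP (red, left) and shScram (blue, right), with open circles for a group mean of 0. Around Sdc2, 8 of 10 neighbours had a mean of at least 10, around Ctnnd2 7 of 10 and around Cdh6 5 of 10. Neighbours with reads are in part given by the rule that found the runs.

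Tspan33 was higher in shSLX4IP, from a low level in shScram. It encodes a tetraspanin of the subgroup that regulates the shedding protease ADAM10. Tspan33 (ENSMUSG00000001763.15, chromosome 6, 29694222 to 29718559, plus strand) was at 634, 547 and 666 in shSLX4IP libraries A, B and C, against 51.3, 9.34 and 18.2 in shScram A, B and C. The shScram values rest on 35, 10 and 20 reads, and the highest was 5.49 times the lowest. The mean was 615 ± 61.6 in shSLX4IP, against 26.3 ± 22.1 in shScram (SD, n = 3 each), 23.4-fold higher in shSLX4IP. The log2 difference was 4.82 (SE 0.61, 95% interval 3.31 to 6.32). It was 5.45 without shScram A, the library with the highest shScram value, and 4.28 without shScram B, the library with the lowest. The other placed tetraspanin, Tspan12, which takes part in norrin signalling, differed in the other direction. It was at 21.7, 13.7 and 5.57 in shSLX4IP libraries A, B and C, against 1240, 1313 and 1364 in shScram A, B and C (log2 difference -6.65, SE 0.48, adjusted p = 0.00081 by limma). A gene on the other strand overlaps its exons.

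Colec12 had the largest difference of the 8. It encodes a scavenger receptor with a C-type lectin domain, known from endothelium and stromal cells, that binds sugars and oxidised lipoprotein. Colec12 (ENSMUSG00000036103.10, chromosome 18, 9707595 to 9882644, plus strand) was at 16.3, 25.4 and 50.2 in shSLX4IP libraries A, B and C, against 3128, 3469 and 3354 in shScram A, B and C. The shScram libraries lay within 1.11 times of each other, and the shSLX4IP values, from 18, 26 and 63 reads, spread over 3.08 times. The mean was 30.6 ± 17.5 in shSLX4IP and 3317 ± 173 in shScram (SD, n = 3 each), 108-fold lower in shSLX4IP, with a log2 difference of -6.86 (SE 0.41, 95% interval -7.88 to -5.83). By log2 difference it was number 8 from the lowest of 462 placed features tested, and Tspan33 was number 10 from the highest. In these bulk libraries fewer cells with a transcript and less transcript per cell cannot be told apart.

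The fibroblast marker Col1a2 was lower in shSLX4IP, as Colec12 was, a call shared by 22.9% of placed features tested. A link between these genes was not tested. Of 12 fibroblast markers listed Col1a2 was the 1 placed, at 273, 302 and 239 in shSLX4IP libraries A, B and C, against 20226, 24482 and 25022 in shScram A, B and C. The 2 placed markers of 12 for neurons and glia, Basp1 and Ncald, summed to 0 to 6.37 in shSLX4IP and to 553 to 925 in shScram. Those of macrophages and other immune cells, Cd72 and Il7r, 2 of 12, summed to 6.34 to 24.7 in shSLX4IP and to 26.4 to 58.9 in shScram, with Il7r at 0 in all 6. The mammary epithelial list had 2 of 18 placed, Grhl2 and Prlr, which summed to 2.93 to 32.6 in shSLX4IP and to 16.8 to 68.8 in shScram. Exons of Ncald and Prlr overlap those of another gene on their own strand. Exons of Ncald, Cd72 and Grhl2 overlap those of genes on the other strand. No endothelial marker was placed. With 2 of 18 mammary epithelial markers placed, both at low values, the labelled cell type could hardly be checked. The part of other cells in the differences was not tested.

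Per kilobase of exons, the order of the members differed between the groups. In shSLX4IP it ran from Ctnnal1, at a mean of 478 normalised counts per kb, through Tspan33 at 118, Sema5a at 27.0 and Cdh17 at 5.43 to Colec12 at 3.51. In shScram it ran from Colec12, at 380 per kb, through Sema5a at 183, Ctnnal1 at 79.0 and Cdh17 at 38.7 to Tspan33 at 5.06. Colec12 thus stood last of the 5 in shSLX4IP and first in shScram. Neighbours in these orders did not overlap between their libraries, except Cdh17, at 3.56 to 7.29 per kb, and Colec12, at 1.87 to 5.75, in shSLX4IP.

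**Figure D3:**
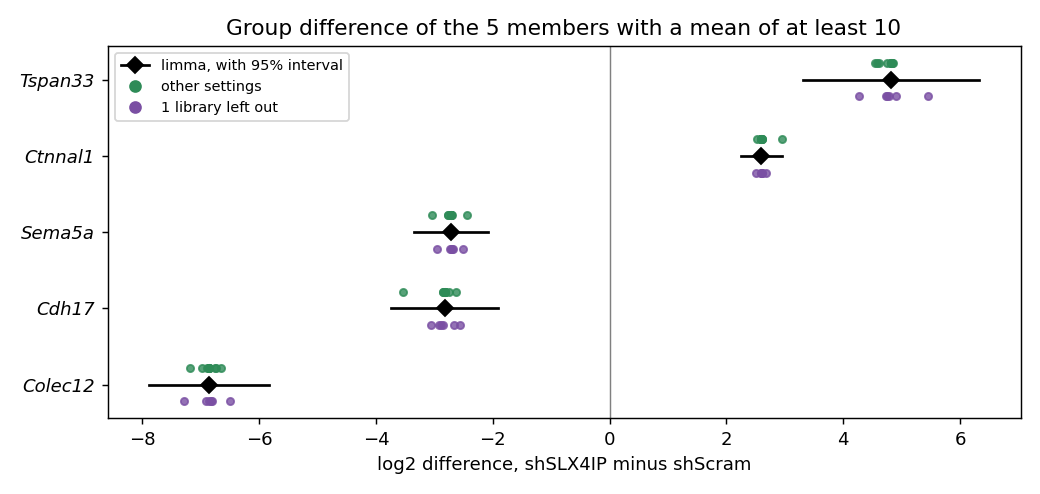
Log2 difference, shSLX4IP minus shScram, of the 5 members with a mean of at least 10, with the limma value and its 95% interval (black), 11 other settings (green) and the fits that leave out 1 library (purple). Each gene keeps its side of 0, with Colec12 between -7.28 and -6.50 and Tspan33 between 4.28 and 5.45. Settings that change only the filter, the trend or the adjustment repeat the limma value.

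Of the 10 tested genes next to a member, 1 was higher in shSLX4IP, 4 were lower and 5 did not pass. Among placed features tested, 17.3% were higher and 22.9% lower, and nothing is read from the counts of neighbours. Drosha, beside Cdh6, was lower (log2 difference -0.84, limma adjusted p = 0.0077). It did not pass after quantile normalization (limma adjusted p = 0.0798). Gem, which encodes a small GTPase and starts just before Cdh17, fell to 24.1 ± 12.5 in shSLX4IP, against 535 ± 32.0 in shScram (log2 difference -4.53, limma adjusted p = 0.00151). On the other side of Cdh17, Pdp1 was at 922 ± 16.7 in shSLX4IP and 796 ± 57.3 in shScram and did not pass (adjusted p = 0.300 by limma). Beside Ctnnal1, Tmem245 was at 4514 ± 133 in shSLX4IP and 2401 ± 960 in shScram and Fam206a at 833 ± 17.8 in shSLX4IP and 1239 ± 272 in shScram, and neither passed (limma adjusted p = 0.0676 for Tmem245 and 0.0943 for Fam206a). Tmem245 passed as higher in 6 of 17 other settings (adjusted p down to 0.0103) and Fam206a as lower in 3 of 17 (adjusted p down to 0.0106), shScram A left out among them for both. Beside Tspan33, the Hedgehog signal transducer gene Smo rose to 10341 ± 158 in shSLX4IP, against 6360 ± 1216 in shScram (log2 difference 0.72, limma adjusted p = 0.0321, up to 0.124 in the 6 of 17 other settings without the call), and Tnpo3, at 7577 ± 267 in shSLX4IP and 6413 ± 655 in shScram, did not pass (limma adjusted p = 0.201). Thoc1, next to Colec12, was at 1595 ± 134 in shSLX4IP and 2836 ± 747 in shScram (log2 difference -0.80, limma adjusted p = 0.0469, up to 0.157 in the 8 of 17 other settings without the call), and its exons overlap those of Usp14 on the other strand. Tas2r119 beside Sema5a, Dnah5 beside Ctnnd2 and Cetn1 beside Colec12 were listed at 0 in all 6 libraries.

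Lists of adhesion and guidance genes were also drawn up, with earlier results of these data known, and few of their genes were placed. The lists do not hold every gene of each family. In the list of integrins and immunoglobulin-like adhesion molecules the 4 placed genes were Svep1, Reck, Musk and Ptprz1, none of them an integrin. Of 281 listed genes other than the members, 13 were placed. In 5 of these (Cdh12, Cdh18, Epha7, Svep1 and Ptprz1) all 6 libraries were at 0, and Cdh9, Cdh10 and Musk had means under 10. Of the 5 that were tested, 1 was higher, 1 was lower and 3 did not pass, with a median log2 difference of -0.30, against -0.23 over placed features and 0.25 over all features tested. The lower gene was Tspan12. The higher gene was Reck, which encodes a membrane-anchored inhibitor of matrix metalloproteinases, at 683, 541 and 578 in shSLX4IP libraries A, B and C, against 152, 348 and 263 in shScram A, B and C (log2 difference 1.31, SE 0.34, limma adjusted p = 0.0437). Reck did not pass in 8 of 17 alternatives, where its adjusted p reached 0.149.

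Among the other tested family genes, Met, the hepatocyte growth factor receptor whose extracellular part holds a semaphorin-type domain, was at 4460 ± 90.8 in shSLX4IP and 3266 ± 970 in shScram and did not pass (log2 difference 0.49, limma adjusted p = 0.179). Tln1, the talin that links integrins to actin, was at 15924 ± 243 in shSLX4IP and 19757 ± 2404 in shScram and did not pass (log2 difference -0.30, limma adjusted p = 0.135). It passed as lower with DESeq2 (adjusted p = 0.0248), with the length trend removed (0.00728) and without shScram A (0.00881). After quantile normalization, under which the median of placed features was 0.06 and not -0.23, the log2 differences of Tln1 and of Sdcbp were positive, at 0.33 and 0.24. Exons of Tln1 and of Sdcbp overlap those of genes on the other strand.

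Profiles over the 6 libraries were compared after each gene's mean log2(value + 1) was subtracted. Among 426 placed nuclear genes tested, the most similar to Ctnnal1 was Rragd, at a root mean square difference of 0.21 log2 units, and the most similar to Sema5a was Snx30, at 0.37, although Snx30 overlaps another gene on its own strand. Tbc1d2 was most like Cdh17 (0.43), Fzd8 most like Colec12 (0.49) and Strip2 most like Tspan33 (0.65). Rragd, which encodes a Rag GTPase of amino acid sensing, was at 2251, 1977 and 1924 in shSLX4IP libraries A, B and C, against 242, 253 and 286 in shScram A, B and C. The Wnt receptor gene Fzd8, on chromosome 18 like Colec12, was listed at 0 in each shSLX4IP library and at 146, 123 and 153 in shScram A, B and C. The log2 difference of Fzd8 therefore depended on the added constant, at -7.14 with log2(value + 1) and -4.86 with log2(value + 5). Strip2 rested on 6, 0 and 0 reads in shScram A, B and C, and it lost its call in 7 of 16 other settings. Likeness here rests mostly on the difference between 2 groups of 3 libraries.

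**Figure D4:**
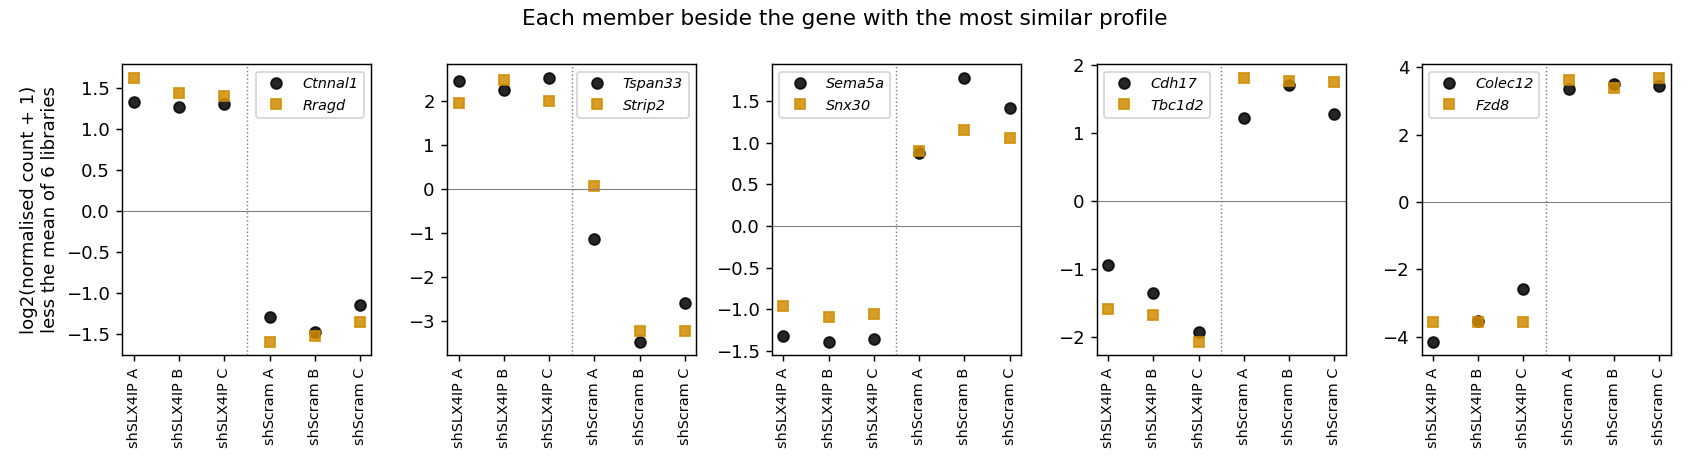
Log2(normalised count + 1) less its mean over the 6 libraries, for each of the 5 members (black circles) and its most similar placed gene (orange squares), with the shSLX4IP libraries left of the dotted line and the shScram libraries right of it. The closest pair is Ctnnal1 and Rragd, and in the Tspan33 panel shScram A lies above shScram B and C for both genes. For Strip2 in that panel, shScram A, B and C hold only 6, 0 and 0 reads.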

How the data were processed

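The members and lists were chosen with earlier results of these data known. The authors deposited 1 table of normalised counts, a signal in which each gene's reads are scaled by a library's size factor, as its name and values show. Tools named in the submitters' processing notes, with no role, are DESeq2 1.22.1, StringTie 2.1.7, STAR 2.7.7 and fastp 0.19.5, and the build is GRCm38 (mm10). Not given in the sources used here were strand setting, filters and annotation release. Columns carry letters, which are not tied to the labels' replicate numbers.

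Divided by the value of 1 read, 99.98% to 100% of values above 0 lay within 0.1 of a whole number. Identifiers were matched to GENCODE M21 (GRCm38) without version, 52093 of 53647. Placed genes lie in maximal-scoring segments of protein-coding genes, where a mean of at least 1000 scores 3 and any other -1, with a score of at least 30; there were 4 segments. limma 3.58.1 (R 4.3.3) gave the main test, which was 2-sided, used log2(value + 1) and a variance trend with intensity, with Benjamini-Hochberg adjustment over all 8127 features with a mean of at least 10 and a threshold of 0.05. A fold change on the log2(value + 1) scale understates the change of low genes. Alternatives included edgeR 4.0.16 and DESeq2 1.42.0 on the recovered whole reads. The fits were tested on simulated data. Each log2 difference is shSLX4IP minus shScram. Named genes were the members, placed family genes with a mean of at least 10, nearest neighbours and most similar genes, and the placed cell type markers beside them. Placed family genes under that mean are named as well, to account for every placed gene.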

Additional observations from a re-analysis of the deposited data

How the results depend on the processing

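All 5 tested members kept their direction and their call in each of 17 other settings, with log2 differences of -3.53 to -2.56 for Cdh17, 2.52 to 2.95 for Ctnnal1, -3.03 to -2.44 for Sema5a, 4.28 to 5.45 for Tspan33 and -7.28 to -6.50 for Colec12. The highest adjusted p over these settings was 0.0325, for Tspan33 without shSLX4IP C. Settings that change only the filter, the trend or the adjustment leave the log2 difference as it was, so direction could not turn there. With a mean of at least 300 used to find the segments there were 9 segments, and all 8 members stayed placed. A lower cutoff can only widen the runs, so no member could have been lost there. Counts over all genes moved more. DESeq2 called 1602 features higher and 1624 lower, 113 placed features among the higher and 165 among the lower, against 712 and 854 with edgeR, and the cause was not tested. With the length trend removed, which tests placed nuclear genes alone, 126 were higher and 133 lower. With 1 library left out, calls ranged from 433 to 1895 higher and from 410 to 1573 lower over all features, and from 40 to 134 higher and from 58 to 167 lower over placed ones, highest without shScram A and lowest without a shSLX4IP library. Without shScram C, 489 features were lower, 69 placed ones among them. No paired analysis was possible because the labels' replicate numbers could not be tied to the columns, whose letters are not said to pair libraries. After quantile normalization the log2 differences of Tln1 and Sdcbp, which had not passed, turned to 0.33 and 0.24, and the cause was not tested. Both passed as lower in 3 of 17 settings. Cpq, whose groups were nearly equal, turned to 0.0049 with quantile normalization and to 0.012 with the length trend removed, and ranged from -0.12 to 0.061 with 1 library left out. Cdh6, Ctnnd2 and Sdc2 were at or near 0, and the part of depth or of read assignment in this was not tested.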
